A study of Mus musculus with 8 samples.

Results

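The genes examined were the 4 murine Fc gamma receptor genes Fcgr1, Fcgr2b, Fcgr3 and Fcgr4 together with Fcer1g. Fcer1g encodes the signalling chain shared by the activating receptors. All 5 genes were taken as every probe set that the platform annotation assigned to 1 of them. This gave 8 probe sets for 5 of the 12393 singly named genes on the array. Fcgr2b had 4 probe sets and each other gene had 1. Fcgr1 lies on chromosome 3 and the other 4 genes lie on chromosome 1. Total RNA came from mouse bone marrow derived macrophages, cells that M-CSF (50 ng/ml, 7 days) drives to mature from marrow, and was measured on 8 one-colour arrays. Vdr-/- cells came from mice with the targeted allele Vdr tm1 Rge, which disrupts the vitamin D receptor gene, and the other cells came from wild-type mice. Within each genotype 1 array held cells given IFN-gamma and calcitriol (1alpha,25(OH)2D3, the hormonally active form of vitamin D), 1 held cells given IFN-gamma, 1 held cells given calcitriol and 1 held untreated cells. Treatment lasted 24 to 48 hours. The doses, the strain and the number of mice behind each culture are not stated.

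Fc gamma receptors bind the constant part of IgG and let macrophages take up and kill antibody-coated targets. Fcgr1, Fcgr3 and Fcgr4 encode activating receptors, which depend on the Fcer1g chain and its ITAM, a tyrosine motif that recruits the kinase Syk. Fcgr2b encodes the inhibitory receptor, whose ITIM recruits the lipid phosphatase SHIP1 (Inpp5d), so the balance of activating and inhibitory receptors sets the threshold of the response to immune complexes. Fcgr1 encodes the high-affinity receptor, Fcgr3 a low-affinity receptor, and Fcgr4 a receptor for IgG2a and IgG2b. IFN-gamma is a T cell and NK cell cytokine that activates macrophages. Promoters of genes it induces often hold a gamma-activated site (GAS) or an interferon-stimulated response element (ISRE).

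The 250 bases before the RefSeq start (GRCm38.p6) are shown for Fcgr1 and Fcgr4, the activating receptor genes that rose with IFN-gamma, and for the inhibitory Fcgr2b. Capitals mark matches on either strand to TTCNNNGAA (GAS), to GAAA, any 2 bases and GAAA (ISRE-like), and to GAGGAA (the core bound by PU.1, the myeloid transcription factor). No matches overlapped in these stretches.
Fcgr1, chr3:96293970-96294219, minus strand: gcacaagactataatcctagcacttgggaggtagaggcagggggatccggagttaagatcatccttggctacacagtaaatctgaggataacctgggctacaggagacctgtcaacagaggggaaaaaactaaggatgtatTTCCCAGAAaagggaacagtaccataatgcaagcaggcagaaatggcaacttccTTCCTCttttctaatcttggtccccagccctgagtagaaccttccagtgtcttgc
Fcgr4, chr1:171018676-171018925, plus strand: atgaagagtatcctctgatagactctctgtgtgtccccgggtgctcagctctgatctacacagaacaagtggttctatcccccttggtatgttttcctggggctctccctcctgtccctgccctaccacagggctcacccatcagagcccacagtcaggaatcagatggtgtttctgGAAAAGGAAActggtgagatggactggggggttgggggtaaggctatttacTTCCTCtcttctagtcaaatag
Fcgr2b, chr1:170976072-170976321, minus strand: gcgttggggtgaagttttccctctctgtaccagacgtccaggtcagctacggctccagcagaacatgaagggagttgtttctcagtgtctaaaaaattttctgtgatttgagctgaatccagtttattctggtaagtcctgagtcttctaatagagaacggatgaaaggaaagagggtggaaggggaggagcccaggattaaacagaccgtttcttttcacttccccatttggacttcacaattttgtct
The Fcgr1 stretch held 1 GAS match, TTCCCAGAA, which began 109 bases before the start, and 1 PU.1 core at 55 bases. The Fcgr4 stretch held 1 ISRE-like match, GAAAAGGAAA, at 73 bases and 1 PU.1 core at 22 bases. The Fcgr2b stretch held none of these motifs. Fcgr3, with 2 listed starts, had 1 PU.1 core, the same site at 6 bases before 1 start and 15 bases before the other. Fcer1g had no match. Among 32851 promoter stretches of the same length, 7.02% held a GAS match, 2.98% an ISRE-like match and 23.3% a PU.1 core. A match describes letters only, and no binding was measured.

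The summed signal of the 8 macrophage markers examined was 35298.7 to 48106.1 with IFN-gamma and 53528.6 to 59439.9 without, with no overlap. Lyz2 and Csf1r were the brightest of the 8 on every array and weighed most in this sum. Of the 8 only Mrc1 was called with IFN-gamma in the test given below (-1.95 log2, limma adjusted p = 2.75e-05), against 3.43% of all probe sets. All 8 were above the pooled median signal (59.1) on every array. Of markers of other cells that carry Fc receptors, 1 of 5 B cell genes (Cd22), 0 of 5 NK cell genes, 2 of 9 neutrophil genes (S100a8 and Csf3r), 0 of 7 mast cell and basophil genes and 1 of 6 dendritic cell genes (Itgax) were above it on every array. Cd79a, Ms4a1, Ncr1, Elane, Camp, Mcpt8 and Kit were at or below the signal floor of 15.5 on 4 or more arrays. Summed neutrophil marker signal was 553.8 to 1192.2 on arrays with IFN-gamma and 826 to 921 on arrays without it. The NK cell sum was 118.4 to 191.4 with IFN-gamma and 114.7 to 387.7 without, and the B cell sum was 228.1 to 423.8 with IFN-gamma and 241 to 523.6 without. The mast cell and basophil sum was 100.8 to 179 with IFN-gamma and 98.7 to 294.3 without, and the dendritic cell sum was 214.6 to 1465.9 with IFN-gamma and 476.2 to 1390 without. Both dendritic maxima were the wild-type calcitriol arrays, where Itgax read 1279.2 with IFN-gamma and 1242.8 without, against 263.4 and 652.7 in wild-type cells not given calcitriol. The part of these cells in the results was not tested, and fewer cells of a type cannot be told apart from less RNA per cell.

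The targeted gene Vdr went against the labels on the untreated arrays. The brighter of 2 Vdr probe sets read 23.6, 2.5, 9.8 and 63.2 on the Vdr-/- arrays (IFN-gamma and calcitriol, IFN-gamma, calcitriol, untreated) and 385.9, 82.9, 118.1 and 5.3 on the wild-type arrays in the same order. Its position relative to the deletion is not stated, so it may check nothing. The library labelled Vdr-/- untreated and the library labelled wild-type untreated are kept under their labels here, and the calcitriol calls are also given with the 2 labels exchanged. The wild-type calcitriol array and the array labelled Vdr-/- untreated also stood apart by Gapdh 3'/5' signal ratios of 7.67 and 4.82, which rise when labelled RNA is truncated. The other 6 arrays had ratios of 0.853 to 3.06, the highest of them Vdr-/- with IFN-gamma. Each group had 1 array, so no level has a replicate, and the number of arrays limits the precision.

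The first comparison asked which Fc receptor genes IFN-gamma changes in these macrophages. Fcgr4 rose about 8-fold and Fcgr1 about 4-fold, while Fcgr3, the chain gene Fcer1g and the inhibitory Fcgr2b did not pass the test. The test was limma over 4 array pairs alike in genotype and calcitriol, adjusted over 18058 probe sets, and it called 3.43% of them (2.15% higher, 1.27% lower). Of the 5 genes 2 were called, both higher with IFN-gamma. All 8 probe sets passed the filter on dim signals, and none was at the floor on any array.

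Fcgr4 (probe set 1425225_at) had signals of 3429.2 in Vdr-/- and 1415 in wild-type cells given IFN-gamma and calcitriol, and 2190.1 in Vdr-/- and 3991.1 in wild-type cells given IFN-gamma. Without IFN-gamma it had 408.2 in Vdr-/- and 235.3 in wild-type cells given calcitriol, and 303.6 and 328.7 on the arrays labelled Vdr-/- and wild-type untreated. The lowest array with IFN-gamma was thus above the highest array without it. The mean was 2756 ± 1169 with IFN-gamma and 319 ± 71.4 without (SD over n = 4 arrays each, which differ in genotype and calcitriol). The change was 3.03 log2, or 8.16-fold (SE 0.2248 log2, limma adjusted p = 1.26e-09). It was higher in 4 of 4 pairs, by 2.59 to 3.60 log2. With the 2 arrays of highest 3'/5' ratio left out and an additive fit it was 2.80 log2 and no longer called (limma adjusted p = 0.186).

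Fcgr1 (1417876_at) had signals of 2293.5 in Vdr-/- and 557.8 in wild-type cells given IFN-gamma and calcitriol, and 1538.3 in Vdr-/- and 3897 in wild-type cells given IFN-gamma. Without IFN-gamma it had 1446.7 in Vdr-/- and 145.2 in wild-type cells given calcitriol, and 296.8 and 544.3 on the arrays labelled Vdr-/- and wild-type untreated. These groups overlapped, because the wild-type array with both agents lay below the Vdr-/- calcitriol array. The mean was 2072 ± 1409 with IFN-gamma and 608 ± 583 without (SD, n = 4 arrays each). The change was 1.96 log2, or 3.88-fold (SE 0.2707 log2, limma adjusted p = 3.17e-05). It was higher in 4 of 4 pairs, from 0.66 log2 in Vdr-/- cells with calcitriol to 2.84 log2 in wild-type cells without it. The call was lost without the wild-type calcitriol pair (1.96 log2, limma adjusted p = 0.167), without the Vdr-/- pair that lacked calcitriol (1.82, 0.199) and without its wild-type counterpart (1.66, 0.0981). With the 2 arrays of highest 3'/5' ratio left out and an additive fit the change was 0.91 log2 (limma adjusted p = 0.747).

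**Figure D1:**
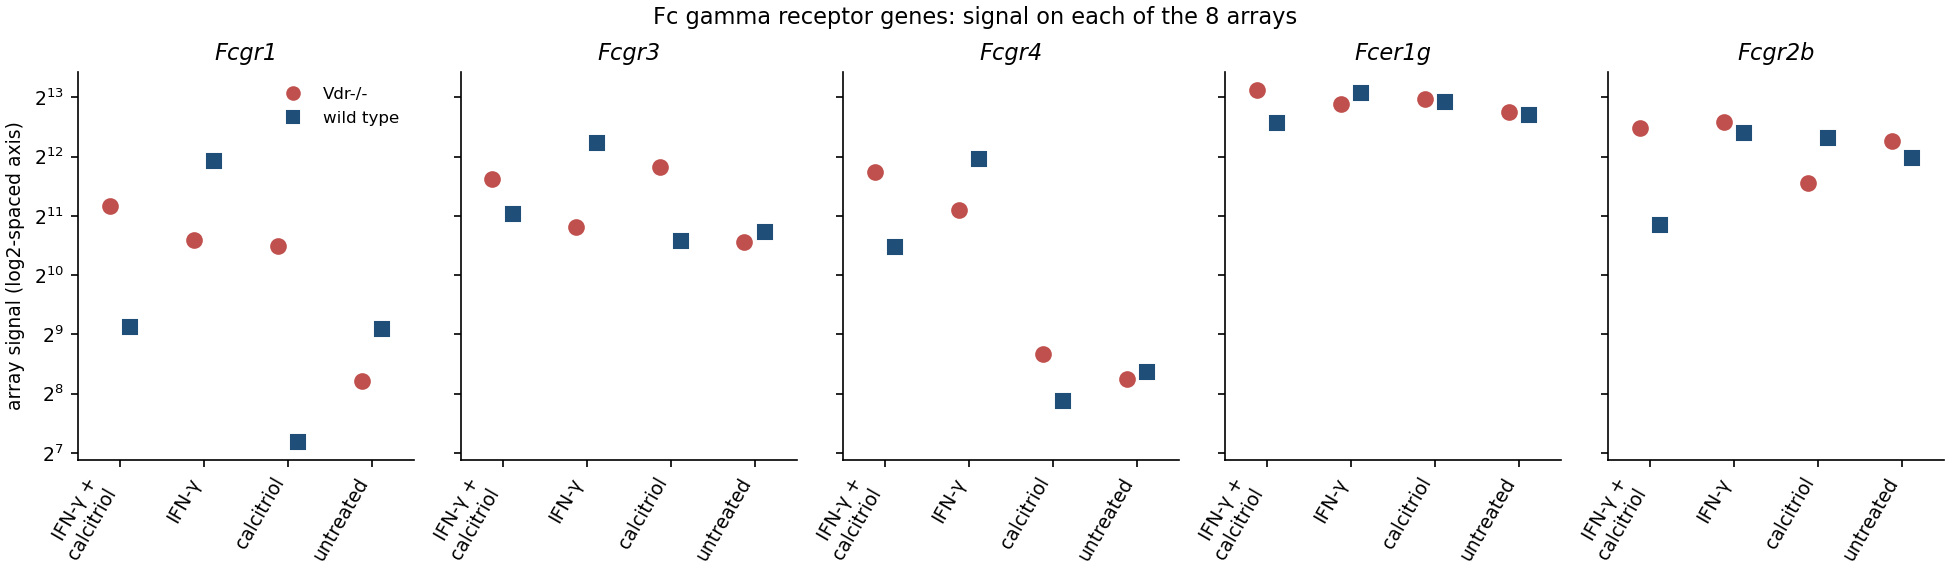
Signal of the representative probe set of each gene on each of the 8 arrays, on a log2-spaced vertical axis, by treatment (horizontal) and genotype (red circles Vdr-/-, blue squares wild type), 1 point per array. Fcgr4 separates the arrays with IFN-gamma (1415 to 3991.1) from those without (235.3 to 408.2), while Fcer1g stays between 6096.4 and 8946.8. Levels of different probe sets are not on 1 scale.

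Fcgr3 (1448620_at), the low-affinity activating receptor gene, had signals of 3153.2 in Vdr-/- and 2082.5 in wild-type cells given both agents, and 1792.3 in Vdr-/- and 4825.8 in wild-type cells given IFN-gamma. Without IFN-gamma it had 3611 in Vdr-/- and 1523.1 in wild-type cells given calcitriol, and 1507.6 and 1697.2 on the arrays labelled Vdr-/- and wild-type untreated. The groups overlapped, and the wild-type array with IFN-gamma alone was the highest of the 8. The change with IFN-gamma was 0.50 log2 (95% interval 0.0006 to 1.01, limma adjusted p = 0.402), with means of 2963 ± 1373 with IFN-gamma and 2085 ± 1021 without (SD, n = 4 arrays each). It was 1.51 log2 in the wild-type pair without calcitriol and -0.20 to 0.45 log2 in the other 3 pairs.

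Fcer1g (1418340_at), whose product carries the signal of the activating receptors, varied least, with its highest array 1.47-fold above its lowest. Its signals were 8946.8 and 6096.4 in Vdr-/- and wild-type cells given both agents and 7618.2 and 8621.4 in those given IFN-gamma. They were 8051.9 and 7751.4 in Vdr-/- and wild-type cells given calcitriol, and 6917.3 and 6680.3 on the arrays labelled Vdr-/- and wild-type untreated. The wild-type array with both agents was the lowest and the Vdr-/- array with both agents the highest. The change with IFN-gamma was 0.08 log2 (limma adjusted p = 0.937), and its 95% interval was -0.41 to 0.57 log2.

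Fcgr2b, the inhibitory receptor gene, was represented by probe set 1435477_s_at, the brightest of its 4. It had signals of 5726.6 in Vdr-/- and 1831.8 in wild-type cells given both agents, and 6161.4 in Vdr-/- and 5409.7 in wild-type cells given IFN-gamma. Without IFN-gamma it had 3020.1 in Vdr-/- and 5116.1 in wild-type cells given calcitriol, and 4921.8 and 4052.7 on the arrays labelled Vdr-/- and wild-type untreated. The wild-type array with both agents was the lowest of the 8. The change with IFN-gamma was 0.05 log2 (95% interval -0.55 to 0.64, limma adjusted p = 0.976), the mean of 0.32, 0.42 and 0.92 log2 in 3 pairs and -1.48 log2 in the wild-type calcitriol pair. The other 3 probe sets gave -0.05 to 0.03 log2, so the sign was not settled.

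**Figure D2:**
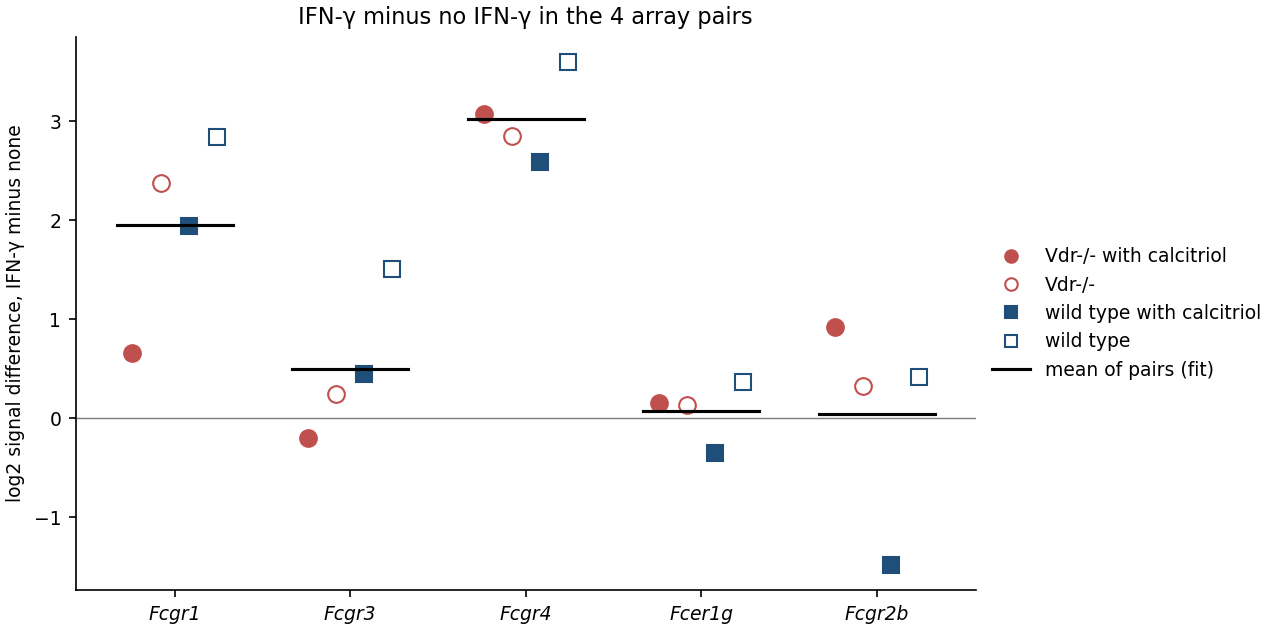
Log2 signal difference, IFN-gamma minus no IFN-gamma, in each of the 4 array pairs (red circles Vdr-/-, blue squares wild type, filled with calcitriol, open without), with the fitted mean of the pairs as a black line. Fcgr4 lies between 2.59 and 3.60 log2 in all pairs, and Fcgr2b falls below 0 in the wild-type calcitriol pair only, at -1.48 log2.

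All 4 Fcgr2b probe sets were lowest on the wild-type array with IFN-gamma and calcitriol. Probe set 1435476_a_at read 993.9 there and 2815.2 to 3736.5 on the other 3 arrays with IFN-gamma. Probe set 1455332_x_at read 897.1 there and 2515.9 to 3317 on the others, and 1451941_a_at read 529.8 there and 1582.6 to 2715.6 on the others. Relative to the mean of the other 3 IFN-gamma arrays the 4 probe sets were at -1.65 to -2.03 log2. This is 1 array, so the difference has no replicate check and no test. The macrophage marker sum was also the lowest of the 8 there (35298.7). Csf1r, the M-CSF receptor gene, read 9768.9 there and 18249.7 to 18893 on the other 3 arrays with IFN-gamma. Mertk, an apoptotic cell receptor gene, read 561.5 there and 955.3 to 1199 on the others, and Cd14 and Itgam were also below the others. The remaining macrophage markers differed from these. Lyz2, Cd68 and Adgre1 lay within the range of the other arrays with IFN-gamma, and Mrc1 was above it (348.3 against 76 to 150.2). The part of these markers in the Fcgr2b values was not tested. On the arrays without IFN-gamma, 1451941_a_at ran from 1436.7 to 1545.6 and the representative from 3020.1 to 5116.1, and log2 signals of the 4 correlated with Pearson's r of 0.855 to 0.995 over the 8 arrays. Probe sets ending in _s_at or _x_at can bind related transcripts, and Fcgr2b and Fcgr3 encode closely similar IgG-binding domains, so their signals may not be fully separate.

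**Figure D3:**
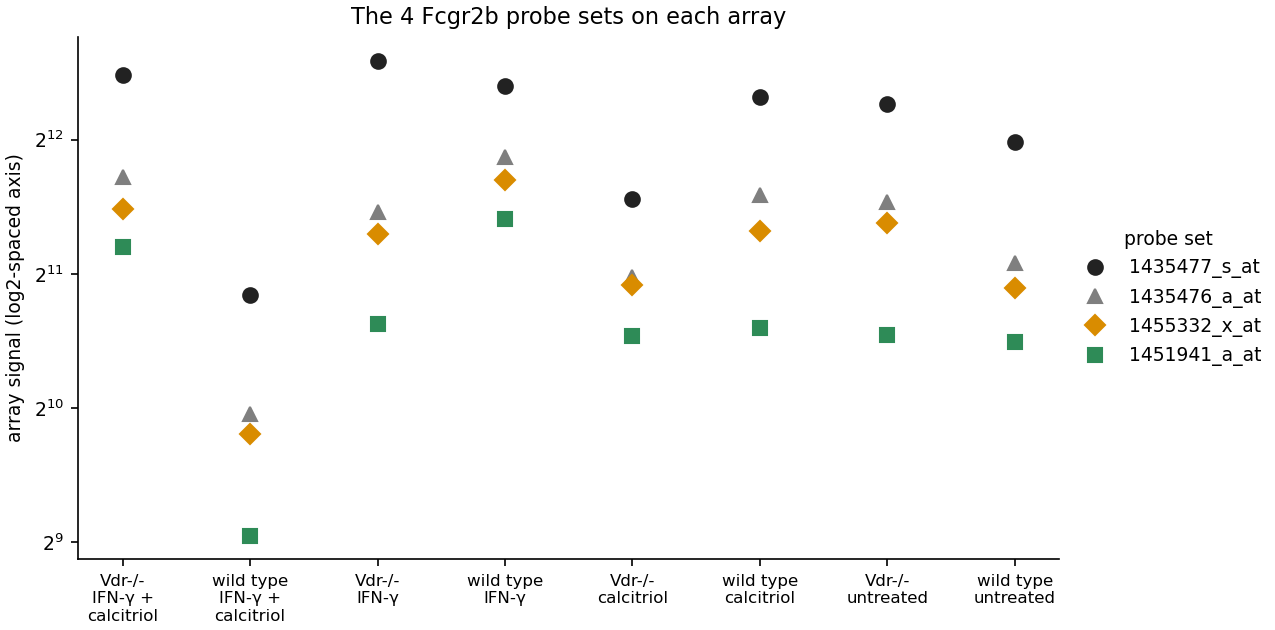
Signal of the 4 Fcgr2b probe sets on each of the 8 arrays, on a log2-spaced vertical axis, 1 point per probe set and array. Each probe set is lowest on the wild-type array with IFN-gamma and calcitriol, from 529.8 to 1831.8.

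The ratio of activating to inhibitory signal was taken as the log2 difference between each activating receptor gene and Fcgr2b on the same array. Signals of different probe sets are not on 1 scale, so a ratio above or below 1 has no meaning, and only its difference between arrays was read. The Fcgr4 to Fcgr2b ratio was 0.599 and 0.772 in Vdr-/- and wild-type cells given both agents and 0.355 and 0.738 in those given IFN-gamma. It was 0.135 and 0.046 in Vdr-/- and wild-type cells given calcitriol, and 0.0617 and 0.0811 on the arrays labelled Vdr-/- and wild-type untreated. No array without IFN-gamma reached the range of those with it. The mean difference was 2.98 log2 (7.90-fold), higher in 4 of 4 pairs, and the two-sided exact permutation test within pairs gave the smallest p that 4 pairs allow, which is above 0.05. An exact permutation of the 8 arrays without pairs, run as an alternative, gave p = 0.0286. This alternative ignores the pairing by genotype and calcitriol. Its p is also the smallest it allows, and follows from the lack of overlap already stated. It therefore adds nothing to that separation, and the test within pairs is the one read here.

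The Fcgr1 to Fcgr2b ratio was 0.401 and 0.305 in Vdr-/- and wild-type cells given both agents and 0.25 and 0.72 in those given IFN-gamma. It was 0.479 and 0.0284 in Vdr-/- and wild-type cells given calcitriol, and 0.0603 and 0.134 on the arrays labelled Vdr-/- and wild-type untreated. The Vdr-/- calcitriol array lay among those with IFN-gamma, and 3 of 4 pairs were higher with the cytokine (1.91 log2, exact permutation p = 0.25). For Fcgr3 to Fcgr2b the range was 0.291 to 1.14 with IFN-gamma and 0.298 to 1.20 without, and 2 of 4 pairs were higher (0.46 log2, exact permutation p = 0.75). Adjusted over these 3 ratios the exact p-values were 0.375 for Fcgr4, 0.375 for Fcgr1 and 0.75 for Fcgr3. The mean of the 3 log2 ratios was -0.93 ± 0.61 with IFN-gamma and -2.71 ± 1.10 without (SD, n = 4 arrays each). It was higher in 4 of 4 pairs, by 0.26 to 3.14 log2 (mean 1.78, again at the smallest p of the exact test).

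**Figure D4:**
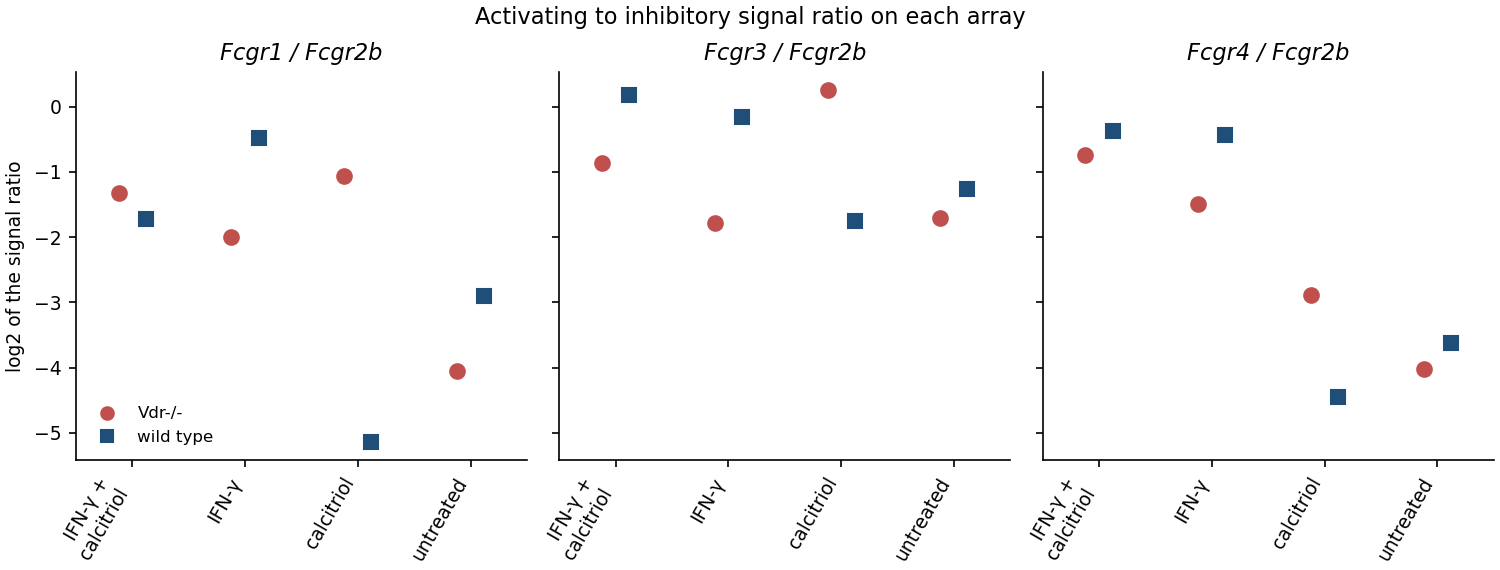
Log2 ratio of the signal of Fcgr1, Fcgr3 or Fcgr4 to that of Fcgr2b (vertical) on each array, by treatment (horizontal) and genotype (red circles Vdr-/-, blue squares wild type). Only the Fcgr4 ratio separates the arrays with IFN-gamma from those without, and only differences between arrays can be read.

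Calcitriol was compared with no calcitriol in each genotype to ask which Fc receptor genes the hormone changes where its receptor gene is intact or disrupted. In Vdr-/- cells none of the 5 genes was called. In wild-type cells Fcgr1 fell about 5-fold and was the only 1 of the 5 called, and its difference between the genotypes was called too. In Vdr-/- cells Fcgr1 read 2293.5 and 1446.7 with calcitriol, with and without IFN-gamma, against 1538.3 and 296.8 without calcitriol. The difference was 1.43 log2 (95% interval 0.66 to 2.21), which did not pass the adjusted test (limma adjusted p = 0.153), in a contrast where limma called 0.194% of probe sets (1147 at an unadjusted p under 0.05) and 0 of the 5 genes.

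In wild-type cells Fcgr1 read 557.8 and 145.2 when given calcitriol with and without IFN-gamma, against 3897 and 544.3 when not given it. The change was -2.36 log2, or 5.12-fold lower (SE 0.3745 log2, limma adjusted p = 0.00439), and it was lower in 2 of 2 pairs, by -2.80 and -1.91 log2. Of all tested probe sets 0.576% were called in this contrast (0.188% higher, 0.388% lower). The difference between the genotypes in the calcitriol effect on Fcgr1, Vdr-/- minus wild type, was 3.79 log2 (SE 0.5296, limma adjusted p = 0.000646). Of all tested probe sets 1.5% were called for that difference (1.33% higher and 0.172% lower in Vdr-/-), and so was 1 of the 5 genes.

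Macrophage markers moved beside Fcgr1. With calcitriol in wild type, 1 of 8 macrophage markers rose and 1 fell, against 0.576% of all probe sets in either direction. Cd14 fell by 2.16 log2 (limma adjusted p = 0.00636), Mrc1 rose by 1.92 log2 (0.0216) and Itgam had a value of -2.01 log2 (0.051). In Vdr-/- cells 1 of 8 rose, Cd68 by 1.66 log2 (limma adjusted p = 0.0416), against 0.194% of all probe sets. For the genotype difference 4 of 8 were called, against 1.5% of all probe sets. Itgam (3.63 log2), Cd14 (2.73) and Cd68 (2.70) were higher and Mrc1 (-2.19) lower in Vdr-/-. Also called were 1 of 7 tested neutrophil markers (Csf3r, 2.22) and 1 of 4 tested dendritic cell markers (Itgax, -2.32). Among the arrays without IFN-gamma, Itgam, Cd14 and Cd68 were lowest and Mrc1 highest on the wild-type calcitriol array and the array labelled Vdr-/- untreated. Those arrays had the highest Gapdh 3'/5' ratios. No call for calcitriol in Vdr-/- or the genotype difference remained with the untreated labels exchanged, or in the additive fit without those arrays. The part of these markers in the Fcgr1 result was not tested, and the markers were named after their values were seen.

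Gapdh 3'/5' ratios also differed between these arrays. Among the arrays without IFN-gamma, Fcgr1 signals of 1446.7, 544.3, 296.8 and 145.2 went with Gapdh 3'/5' ratios of 0.853, 1.11, 4.82 and 7.67. Among those with IFN-gamma, signals of 3897, 2293.5, 1538.3 and 557.8 went with ratios of 1.04, 1.07, 3.06 and 1.65. With log2 of this ratio as a covariate the change in wild type was -2.43 log2 (limma adjusted p = 0.00144) and the genotype difference 3.94 log2 (0.0288), both still called, with 1 residual degree of freedom. In an additive model that also left out the 2 arrays of highest ratio, again with 1 residual degree of freedom, the values were -2.26 log2 (limma adjusted p = 0.605) and 3.38 log2 (0.702). Neither was called, and the loss cannot be assigned to the arrays or to the model. Exchanging the 2 untreated labels gave -1.92 log2 (limma adjusted p = 0.0533) and 2.91 log2 (0.112), and neither was called.

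The other activating receptor genes had the same signs as Fcgr1 in each genotype without passing the adjusted test. For Fcgr4 the calcitriol value was 0.54 log2 in Vdr-/- (limma adjusted p = 0.889) and -0.99 log2 in wild type (0.242), and the genotype difference was 1.53 log2 (0.121). For Fcgr3 it was 1.04 log2 in Vdr-/- (limma adjusted p = 0.368) and -0.68 log2 in wild type (0.491), and the difference was 1.72 log2 (0.0705). In single pairs Fcgr4 was higher with calcitriol in both Vdr-/- pairs (0.65 log2 with IFN-gamma, 0.43 without) and lower in both wild-type pairs (-1.50 and -0.48 log2). Fcgr3 had 0.82 and 1.26 log2 in the Vdr-/- pairs and -1.21 and -0.16 log2 in the wild-type pairs.

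Fcer1g and Fcgr2b were called in neither genotype. Fcer1g had 0.23 and 0.22 log2 in the Vdr-/- pairs with and without IFN-gamma and -0.50 and 0.21 log2 in the wild-type pairs, and its genotype difference was 0.37 log2 (95% interval -0.71 to 1.45). Fcgr2b had -0.11 and -0.70 log2 in the Vdr-/- pairs and -1.56 and 0.34 log2 in the wild-type pairs. Its calcitriol value was -0.41 log2 in Vdr-/- (limma adjusted p = 0.934) and -0.61 log2 in wild type (0.634), and the difference was 0.21 log2 (95% interval -0.93 to 1.35). These are values of the representative. The other Fcgr2b probe sets, also not called, gave -0.15 to 0.28 log2 in Vdr-/- and -1.13 to -0.70 log2 in wild type. Their genotype differences were 0.56 to 1.41 log2, the largest for 1451941_a_at (95% interval 0.22 to 2.59, limma adjusted p = 0.309). The size of the Fcgr2b difference thus depended on the probe set. With the Gapdh ratio as a covariate the wild-type value of the Fcgr2b representative was -2.06 log2 (limma adjusted p = 0.0239).

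**Figure D5:**
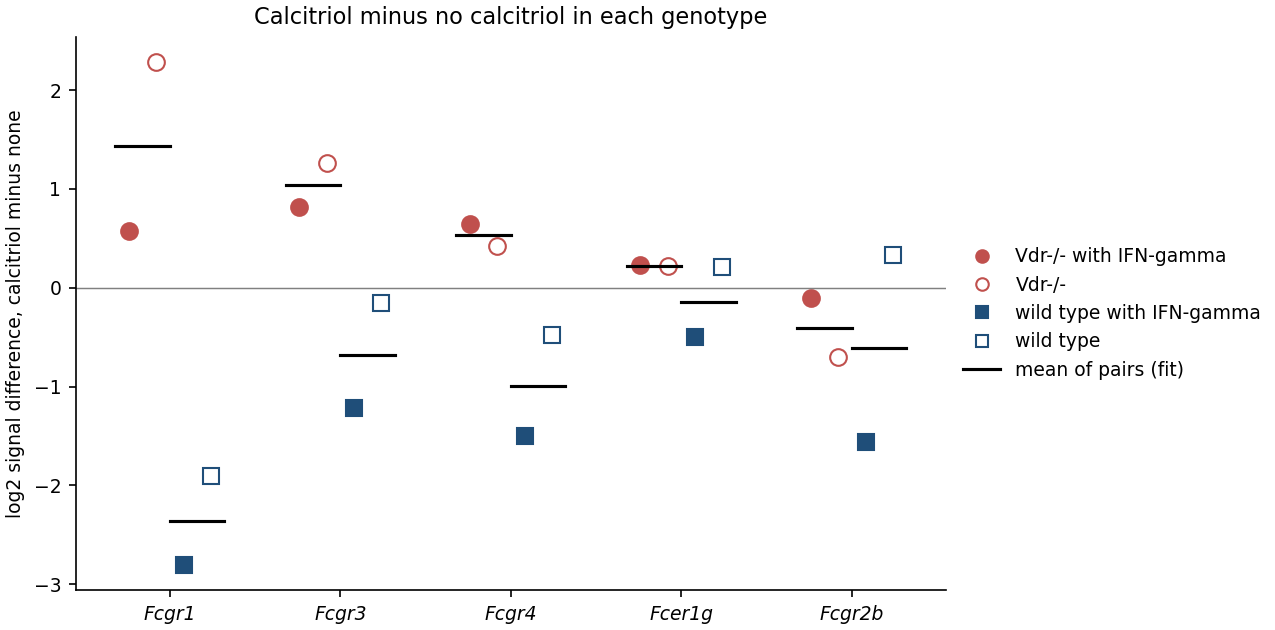
Log2 signal difference, calcitriol minus no calcitriol, in each array pair (red circles Vdr-/-, blue squares wild type, filled with IFN-gamma, open without), with the fitted mean per genotype as a black line. Fcgr1 lies at 0.58 and 2.29 log2 in the Vdr-/- pairs and at -2.80 and -1.91 log2 in the wild-type pairs.

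With calcitriol the Fcgr1 to Fcgr2b ratio differed by 0.68 and 2.99 log2 in the Vdr-/- pairs with and without IFN-gamma, and by -1.24 and -2.24 log2 in the wild-type pairs. The Fcgr4 to Fcgr2b ratio differed by 0.75 and 1.13 log2 in the Vdr-/- pairs, and by 0.07 and -0.82 log2 in the wild-type pairs. Under IFN-gamma in wild type, both Fcgr4 (1415 with calcitriol, 3991.1 without) and Fcgr2b (1831.8 with calcitriol, 5409.7 without) were lower with the hormone, so their ratio moved little. These are single pairs, and no test was made of them.

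Genotype was compared over the 4 treatments to ask whether the receptor gene itself alters Fc receptor expression. None of the 5 genes was called, and limma called 0 of 18058 probe sets (611 at an unadjusted p under 0.05). With the Gapdh covariate it called 86 and with the untreated labels exchanged 7, none of them for the 5 genes. Vdr-/- minus wild type was 0.79 log2 for Fcgr1 (95% interval -0.26 to 1.83), 0.06 for Fcgr3 (-0.69 to 0.81) and 0.27 for Fcgr4 (-0.41 to 0.96). It was 0.12 log2 for Fcer1g (-0.62 to 0.86) and 0.34 for Fcgr2b (-0.42 to 1.10). The pairs had opposite signs, and Fcgr1 was higher in Vdr-/- with calcitriol (3.32 log2) and with both agents (2.04) and lower with IFN-gamma alone (-1.34) and untreated (-0.87). Without the calcitriol pair the Fcgr1 value was -0.06 log2. Effects of genotype and of the mice or cultures behind each array cannot be told apart.

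The difference between the genotypes in the IFN-gamma effect was not called for any of the 5 genes, and limma called 0 probe sets (635 at an unadjusted p under 0.05). It called 109 with the untreated labels exchanged and 7 with the Gapdh covariate, none of them for the 5 genes. Vdr-/- minus wild type was -0.87 log2 for Fcgr1 (95% interval -1.97 to 0.22), -0.95 for Fcgr3 (-1.93 to 0.02) and -0.13 for Fcgr4 (-1.11 to 0.84). It was 0.13 log2 for Fcer1g (-0.94 to 1.21) and 1.16 for Fcgr2b (0.01 to 2.30, limma adjusted p = 0.996). The other Fcgr2b probe sets gave 0.60 to 0.76 log2, each with a 95% interval that included 0.

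Genes that act downstream of the receptors were examined next. Of 18 tested genes of activating ITAM signalling 1 rose and 1 fell, against 3.43% of all probe sets in either direction, and the list's median was 0.20 log2 beside -0.08 log2 for all tested probe sets. Lcp2, which encodes the adaptor SLP-76, rose by 1.53 log2 (limma adjusted p = 0.000423), with 455.9 to 764.4 on arrays with IFN-gamma and 150.7 to 326.6 on those without. Its dimmer probe set gave 0.43 log2 and was not called. Syk, the kinase that binds the phosphorylated ITAM, fell by 0.94 log2 (limma adjusted p = 0.0183), with 315.5 to 449.7 on arrays with IFN-gamma and 628.3 to 798.8 on those without. Its other 2 probe sets gave -0.58 and -0.80 log2 and were not called.

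Of 11 tested genes of inhibitory signalling 1 rose with IFN-gamma and 0 fell, with a median of 0.06 log2. Ptpn6, which encodes the tyrosine phosphatase SHP-1, rose by 2.05 log2 (limma adjusted p = 3.28e-05), with 585.7 to 1508 on arrays with IFN-gamma and 116.1 to 718.3 on those without, and its second probe set rose by 0.95 log2 (0.0481). Its lowest signals, 130.5 and 116.1, were on the wild-type calcitriol array and the array labelled Vdr-/- untreated, which had the highest Gapdh 3'/5' ratios. The remaining arrays without IFN-gamma read 718.3 (Vdr-/- with calcitriol) and 416.7 (labelled wild-type untreated). Inpp5d, the SHIP1 gene through which Fcgr2b acts, had a value of 0.06 log2 (limma adjusted p = 0.957). Inpp5d, like Tyrobp and Trim21, were named after their values were seen.

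Among 10 tested genes of other Fc receptors and ITAM adaptors 1 rose and 1 fell, with a median of -0.19 log2. That median rests partly on dim signals, as Fcer1a, Fcer2a, Fcamr, Pigr and Fcrl1 were above the pooled median signal on only 1 or 2 arrays. Fcgrt, the neonatal Fc receptor gene whose product recycles IgG, rose by 1.89 log2 (limma adjusted p = 0.000251), with 590.8 to 1231.2 on arrays with IFN-gamma and 102.8 to 570 on those without. Its lowest signals, 148.5 and 102.8, were on the wild-type calcitriol array and the array labelled Vdr-/- untreated. Those arrays had the highest Gapdh 3'/5' ratios. Without IFN-gamma it read 570 in Vdr-/- cells given calcitriol and 563.4 on the array labelled wild-type untreated, close to the lowest array with IFN-gamma. Fcrls, an Fc receptor-like scavenger receptor gene, fell by 3.14 log2 (limma adjusted p = 1.32e-06), with 30.9 to 117 on arrays with IFN-gamma and 184.1 to 1803.2 on those without. Tyrobp, the DAP12 adaptor gene, had a value of -0.27 log2 (limma adjusted p = 0.765), and Trim21, which encodes the cytosolic Fc receptor, 0.76 log2 (0.271).

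With calcitriol in wild type, 3 of the 18 activating signalling genes fell, against 0.388% of all probe sets. These were Coro1a, an actin regulator (-2.39 log2, limma adjusted p = 0.00197), the PI3K adaptor gene Pik3ap1 (-2.44, 0.026) and the adaptor gene Lat2 (-2.11, 0.0297), and the list's median was -0.36 log2 beside 0.05 for all probe sets. The other 2 Coro1a probe sets gave -0.83 and -1.01 log2 and were not called. Of the 11 inhibitory genes 1 fell, the ITIM receptor gene Pirb (-1.54 log2, limma adjusted p = 0.0331), and of the 10 other Fc receptor genes 0 were called. With the untreated labels exchanged 20 probe sets were called in this contrast, against 104, and without the 2 high-ratio arrays, in the additive model, limma called 0. Like Fcgr1, Coro1a was low on the same wild-type arrays, with 302.3 and 290.8 in wild-type cells given calcitriol with and without IFN-gamma, against 1713.6 and 1401.7 in wild-type cells not given it.

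In Vdr-/- cells 0 of 18, 1 of 11 and 0 of 10 genes of these lists were called for calcitriol, against 0.194% of all probe sets, the 1 being Ptpn6 (1.90 log2, limma adjusted p = 0.0416), whose second probe set gave -0.17 log2. For the genotype difference in the calcitriol effect, 3 of 18, 2 of 11 and 2 of 10 genes were called, all higher in Vdr-/-, against 1.33% of all probe sets higher. They were Lat2 (3.82 log2), Pik3ap1 (3.54), Coro1a (3.30), Ptpn6 (2.92), Pirb (2.47), Fcrls (3.65) and Fcgrt (2.74), of which Ptpn6 had a second probe set of the opposite sign at -0.15 log2. In Vdr-/- cells Fcgrt read 1144.1 and 570 with calcitriol, with and without IFN-gamma, against 1124.6 and 102.8 without calcitriol. In wild-type cells it read 590.8 and 148.5 with calcitriol, against 1231.2 and 563.4 without. The array labelled Vdr-/- untreated and the wild-type calcitriol array were the lowest of all arrays for Fcgrt, Ptpn6 and Pik3ap1, and both had the high 3'/5' ratios. Among the arrays without IFN-gamma they were the lowest for every gene of these lists called for the genotype difference. With the untreated labels exchanged, and in the additive model without the 2 high-ratio arrays, limma called 0 probe sets for calcitriol in Vdr-/- and 0 for the genotype difference, so each of these list calls ended there.

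Among the 5 genes themselves, log2 signals over the 8 arrays correlated most between Fcgr1 and Fcgr3 (Pearson's r = 0.844) and between Fcgr1 and Fcgr4 (0.824). Fcgr2b had r of -0.011 with Fcgr3, 0.184 with Fcgr4 and 0.189 with Fcgr1, and 0.647 with Fcer1g. These values describe 8 arrays that share their treatments. Of 6053 singly named genes above the floor on every array, Igtp, Il18bp and Srgn had the patterns most like Fcgr4, with r of 0.984, 0.978 and 0.977. Grcc10, Susd6 and Pomt2 were most like Fcgr1 (0.983, 0.96 and 0.954), and Rpl19, Rtcb and Vamp8 were most like Fcgr3 (0.965, 0.96 and 0.952). Elovl5, Rassf5 and Rnf2 were most like Fcgr2b (0.936, 0.935 and 0.932), and Wdfy2, Mob1a and Fgd4 were most like Fcer1g (0.925, 0.916 and 0.916). Igtp, an interferon-inducible GTPase gene, ran from 192 to 2741.6, and Rpl19, a ribosomal protein gene, from 3259.1 to 5590.1. No gene was listed for more than 1 of the 5 genes. With only 3 of 6053 genes taken for each, this does not show that their patterns are separate.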

How the data were processed

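Total RNA of 8 macrophage cultures was hybridised to 1 one-colour array each. The authors deposited linear probe set intensity values, scaled so that every array has a 2% trimmed mean of 150.1, as the values show. Their software and genome build are not stated. Of 22690 probe sets 64 controls were set aside. A floor at the pooled 25th percentile (15.5) was applied before log2. Testing covered 18058 probe sets with a maximum of at least the pooled median (59.1), of whose values 15.5% lay at the floor. Dim signals and few arrays limit precision. Of the probe sets 20380 had 1 annotated gene, 691 several and 1555 none, with symbols updated through gene IDs. The brightest probe set represented a gene.

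Changes were tested in R 4.3.3 by limma 3.58.1 with moderated variances and an intensity trend, two-sided, with Benjamini-Hochberg adjustment at 0.05. IFN-gamma and genotype were fitted with 4 blocks of paired arrays (3 residual degrees of freedom), and calcitriol within genotype in a nested fit (2). Spread came from disagreement between pairs, so p-values do not measure variation between mice. Ratios used exact permutation. Fits were tested on simulated data. The genes, lists and naming rule were chosen with earlier results of these data known. Named were all probe sets of the 5 genes, called genes of the pathway lists (at most 6 per list and contrast), the 3 genes most correlated with each, and Vdr. Sequences are RefSeq's (GRCm38.p6), and all 5 genes matched. Alternatives covered scaling, floor, filter, trend, block, probe set, left-out pairs, untreated labels and 3'/5' ratios. Figures used Python 3.11.15 and matplotlib 3.10.9.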

Additional observations from a re-analysis of the deposited data

Results flagged for a closer look

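Among 22 sets of 4 arrays examined for a value far from the other 3, 2 stood out. Chance makes about 1 in 20 sets stand out, so 2 of 22 is close to that rate. The sets are also not independent, because the ratios reuse the same probe sets. Fcgr2b (probe set 1435477_s_at) had a log2 signal of 10.839 on the wild-type array with IFN-gamma and calcitriol, against 12.40 to 12.59 on the other 3 arrays with IFN-gamma. Fcgr3 had a log2 signal of 11.818 on the Vdr-/- calcitriol array, against 10.56 to 10.73 on the other 3 arrays without IFN-gamma. The calcitriol effect on Fcgr1 differed between the genotypes by 3.79 log2, Vdr-/- minus wild type, with 1.43 log2 in Vdr-/- and -2.36 log2 in wild type (limma adjusted p = 0.000646).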

How the results depend on the processing

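Fcgr4 kept its IFN-gamma call under 14 of 15 alternatives (2.80 to 3.21 log2), the exception being the additive fit that leaves out the 2 arrays of highest 3'/5' ratio (wild-type calcitriol and Vdr-/- untreated). Fcgr1 lost its IFN-gamma call under 7 of 15 (0.91 to 2.39 log2), its wild-type calcitriol call under 6 of 9 (-2.43 to -1.92) and its genotype difference under 5 of 9 (2.91 to 3.94), always with the same sign. For IFN-gamma, against 2 of the 5 genes, 1 was called without the filter, without the intensity trend and without the block, 0 without the 2 arrays, and 1 to 2 with 1 pair left out. Over all probe sets the IFN-gamma count of 619 was 80 without the filter, 70 without the trend, 402 without the block, 53 without the 2 arrays and 99 to 152 without 1 of 3 pairs. For calcitriol in wild type, against 1 gene, 0 were called without the filter, with the stricter filter (pooled 75th percentile), with the floor at the 10th percentile, without the trend, with the untreated labels exchanged and without the 2 arrays, and 2 with the Gapdh covariate. For the genotype difference in it, against 1, 0 were called without the filter, with the stricter filter, without the trend, with the labels exchanged and without the 2 arrays. The cause was not tested. The genotype effect, calcitriol in Vdr-/- and the genotype difference in the IFN-gamma effect gave 0 of 5 under every alternative. The mean activating to inhibitory log2 ratio stayed higher with IFN-gamma than without, by 0.98 to 2.29 log2.

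Signs reversed only for values that were not called. For IFN-gamma, Fcer1g was -0.036 log2 after quantile normalization and -0.018 to 0.22 with 1 pair left out. Fcgr2b was -0.013 after quantile normalization, -0.25 to 0.55 with 1 pair left out (-0.047 and -0.078 without either pair that lacked calcitriol), and -0.044 and -0.054 by probe sets 1435476_a_at and 1455332_x_at. For genotype with 1 pair left out, Fcgr1 was -0.059 to 1.49, Fcgr3 -0.33 to 0.56 (-0.12 without the pair given both agents), Fcgr4 -0.062 to 0.65, Fcer1g -0.024 to 0.22 and Fcgr2b -0.098 to 0.70. For calcitriol in Vdr-/-, Fcgr2b was 1.28 with the Gapdh covariate and 0.28 by probe set 1451941_a_at. For the genotype difference in the IFN-gamma effect, Fcer1g was -0.14 with the covariate and -0.22 without the 2 arrays. The difference with IFN-gamma in the Fcgr3 to Fcgr2b log2 ratio was -0.034 to 0.98 with 1 pair left out and -0.16 without the 2 arrays. The labels give no replicate numbers, and the blocks pair arrays by genotype and treatment. Without the block the IFN-gamma change in Fcgr1 had a limma adjusted p of 0.0544.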
